A study of Mus musculus with 15 samples.

Results

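The genes described here are 33 genes of fatty acid oxidation and ketogenesis, measured in RNA of primary mouse hepatocytes. They were taken by symbol, through the Ensembl identifier, from the 56953 genes listed for each library. Hepatocytes came from WT mice and from transgenic ΔEGFR mice, and mice of each genotype were given either mineral oil or carbon tetrachloride (CCl4), a liver toxin used to produce fibrosis. The 15 libraries fall into 4 groups: WT with mineral oil (n = 4), WT with CCl4 (n = 3), ΔEGFR with mineral oil (n = 4) and ΔEGFR with CCl4 (n = 4). The ΔEGFR name refers to an altered epidermal growth factor receptor. The labels do not give the promoter of the transgene, the altered stretch of the receptor, the age or sex of the mice, or the dose and duration of CCl4. They also do not link a library to an animal, so replicate numbers are only names, and p-values reflect variation among libraries that may be technical.

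Fatty acids enter mitochondria as carnitine esters and are shortened there in a repeated cycle of dehydrogenation, hydration, a second dehydrogenation and thiolysis. Very long and branched chains are shortened first in peroxisomes. In the fasting liver much of the resulting acetyl-CoA becomes ketone bodies, and the nuclear receptor PPARα, encoded by Ppara, is known to switch on most genes of these routes. The 33 members were grouped by role: 5 genes of the carnitine shuttle, 4 acyl-CoA dehydrogenases, 5 genes of mitochondrial hydration and thiolysis, 3 enzymes for unsaturated bonds, 3 electron transfer genes, 6 peroxisomal genes, 5 acyl-CoA thioesterases, the ketone body gene Bdh1 and the regulator Ppara. All 33 passed the filter on low counts that left 17975 genes for testing.

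Library totals ran from 51.7 to 155.4 M counts (M, mega), with 6 libraries between 51.7 and 61.9 M and 9 between 96.2 and 155.4 M. Every ΔEGFR library with mineral oil was among the 9, while WT mineral oil 1 was the only library of its group among them. The 9 hepatocyte markers found in the files were present in every library. They summed to 87582 to 160581 CPM (counts per M) in WT with mineral oil and 59605 to 124522 with CCl4, and to 95809 to 175105 and 59934 to 135521 CPM in ΔEGFR. With CCl4, 8 of the 9 had negative log2 fold changes in each genotype, with medians of -0.78 in WT, where 3 were called lower, and -0.61 in ΔEGFR, where 1 was. Of all genes tested, 7.2% were called lower in WT and 2.38% in ΔEGFR, and 48.1% and 48.7% had positive values. Without the scaling factors described below the medians of the hepatocyte markers were -0.37 and -0.14, with 7 of the 9 negative. Macrophage markers summed to 107 to 2255 CPM in WT libraries with mineral oil and 2653 to 8684 with CCl4. In ΔEGFR libraries their sums were 45.1 to 1287 CPM with mineral oil and 3630 to 6987 with CCl4. All 14 macrophage markers and all 10 stellate cell markers had higher means with CCl4 in both genotypes, and stellate marker sums ran from 31.1 to 219 CPM with mineral oil and from 211 to 829 CPM with CCl4. Markers at 0 in at least 1 library were Acta2, Krt19, Cftr and Ms4a1. The part of these cells in the results below was not tested, and in bulk RNA fewer hepatocytes and less RNA per hepatocyte cannot be told apart. The library WT mineral oil 1 stood apart from the other 3 of its group. It lay among the CCl4 libraries on the first principal component (55.7% of the variance), and its neutrophil markers summed to 1444 CPM. Its macrophage, endothelial and erythroid marker sums (2255, 731 and 796 CPM) were also the highest of its group, as was that of T, NK and B cell markers (80.2 CPM). Results are therefore given with it and, where they moved, without it.

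Under mineral oil the members spanned a wide range of abundance. On the length-corrected TPM scale (transcripts per M), the highest mean in WT mineral oil was 696 for Nudt7, followed by 587 for Acaa2 and 435 for Acaa1b. The lowest were 1.79 TPM for Acot2 and 0.568 TPM for Acot3. Summed over the 33 genes, the libraries held 3210 to 7489 TPM, and the 4 groups overlapped in this sum. The map of every member in every library shows most mitochondrial rows changing shade together from library to library, while the rows for Crat, Nudt7 and the thioesterases follow patterns of their own.

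**Figure D1:**
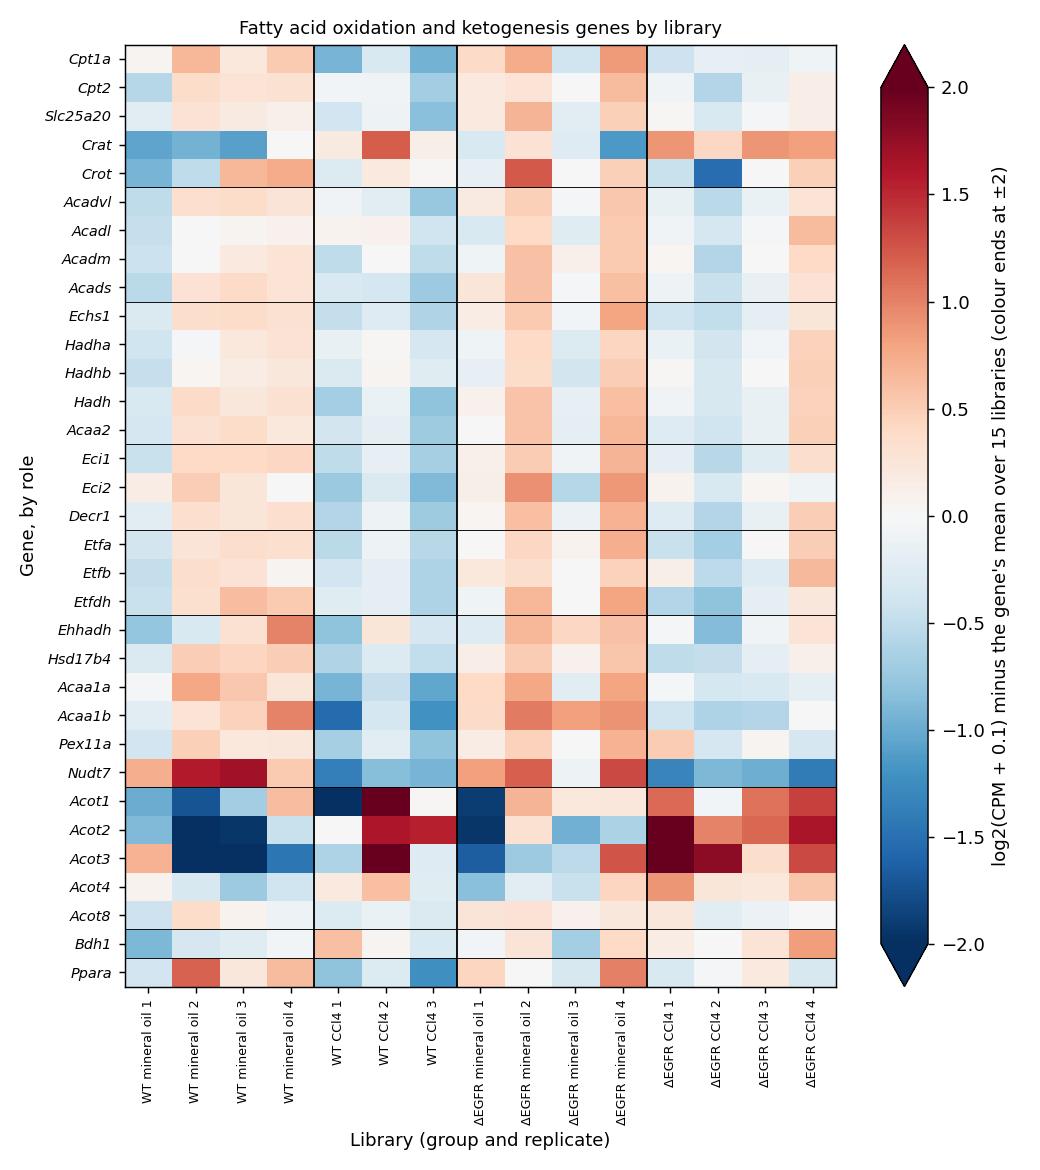
Each row is 1 of the 33 genes, ordered by role, and each column 1 library; colour gives log2(CPM + 0.1) minus the gene's mean over the 15 libraries. Nudt7 is above its mean in 7 of 8 mineral oil libraries and below it in the 7 CCl4 libraries, and Acot2 is highest in CCl4 libraries.

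In WT hepatocytes, 8 of the 33 members (24.2%) changed with CCl4 in edgeR's quasi-likelihood test at a Benjamini-Hochberg adjusted p under 0.05, where 12.5% of all tested genes were called. The count depended on single libraries: it was 15 without WT mineral oil 1, beside 28.7% of all genes, and 1 without WT CCl4 3, beside 3.12%. In the fit of all libraries Nudt7, Acaa1a, Acaa1b and Hsd17b4 of the peroxisomal group fell, as did Cpt1a and Ppara. Acot2, a mitochondrial thioesterase, and Crat, carnitine acetyltransferase, rose. The 2 that rose stand beside 5.31% of all genes called higher, and the 6 that fell beside 7.2% called lower. The median log2 fold change over the 33 was -0.51, against -0.03 over all genes tested, and 27 of the 33 were negative and 6 positive, where 48.1% of all genes were positive. At an unadjusted p under 0.05 there were 16 members (48.5%), beside 28.9% of all genes. The WT mineral oil and CCl4 libraries did not overlap for 2 members that were higher (12.1% of all genes) and for 5 that were lower (11.9% of all genes).

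In ΔEGFR hepatocytes 2 members (6.06%) passed the test, where 4.15% of all tested genes were called. Nudt7 and Acaa1b fell, beside 2.38% of all genes called lower, and no member was called higher, beside 1.77% of all genes. At an unadjusted p under 0.05 there were 10 members (30.3%, beside 24.7% of all genes), and DESeq2 called 4, adding Acot2 and Crat. The median over the 33 was -0.42, against -0.02 over all genes, and the same 27 were negative and 6 positive, where 48.7% of all genes were positive. Groups did not overlap for 2 higher members, Acot2 and Crat (12.3% of all genes), and for 2 lower members, Nudt7 and Acaa1b (9.32%).

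**Figure D2:**
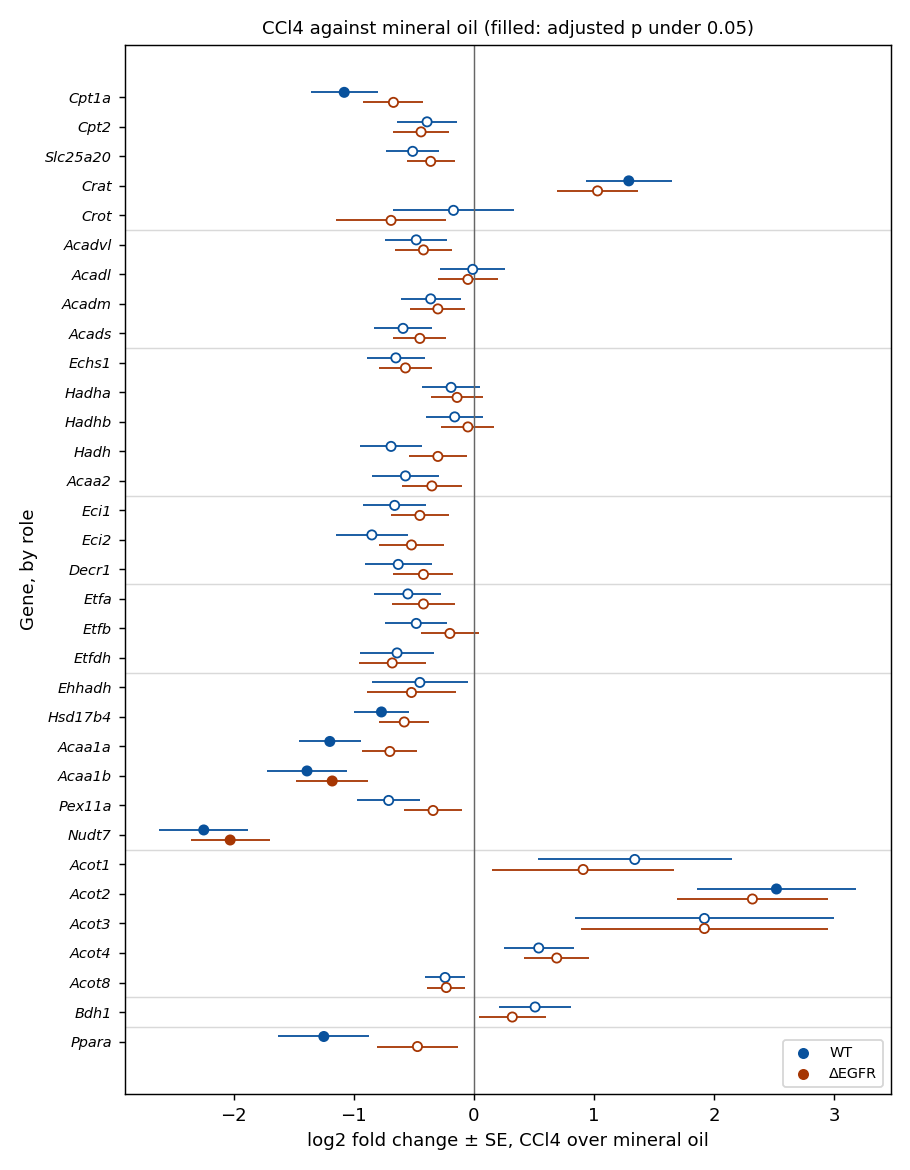
Points are log2 fold changes of CCl4 over mineral oil with their standard errors for the 33 genes by role, blue for WT and orange for ΔEGFR, filled where the adjusted p is under 0.05. Nudt7 lies lowest in both genotypes (-2.25 and -2.03) and Acot2 highest (2.52 and 2.32); most mitochondrial genes sit between -0.9 and 0.

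The direction of the broad, small decrease depends on how libraries were scaled. The scaling factors (TMM) were 0.745 to 1.03 in mineral oil libraries and 1.03 to 1.34 in CCl4 libraries. Without them the median over all genes moved from -0.03 to 0.40 for WT and from -0.02 to 0.44 for ΔEGFR. The members' median then became -0.08 in WT, with 19 of 33 negative, and 0.05 in ΔEGFR, with 11 negative. On log2(TPM + 1) the members' medians were -0.02 and 0.16, beside 0.42 and 0.40 over all genes. Under each of these scalings the members' median lay below that of all genes, but its sign, and that of many single mitochondrial genes, did not hold.

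The peroxisomal group held 4 of the 8 called members of WT. Nudt7 encodes a peroxisomal diphosphatase that breaks down coenzyme A and its esters. Its level was 464, 846, 897 and 403 CPM in the 4 WT libraries with mineral oil and 109, 156 and 147 CPM in the 3 with CCl4. ΔEGFR hepatocytes held 494, 641, 262 and 699 CPM with mineral oil and 113, 151, 143 and 107 CPM with CCl4. Every mineral oil library of both genotypes lay above every CCl4 library, although the mineral oil libraries differed among themselves more than the CCl4 libraries did. With CCl4, Nudt7 fell 4.75-fold in WT hepatocytes (log2 fold change -2.25 ± 0.37 SE, adjusted p = 0.00529). It fell 4.08-fold in ΔEGFR hepatocytes (-2.03 ± 0.33, adjusted p = 0.0112). The call was kept in both genotypes under 8 of 8 other settings and without each of the 15 libraries in turn, and over all of these fits the log2 fold change was -2.44 to -1.54 for WT and -2.25 to -1.35 for ΔEGFR.

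Acaa1a and Acaa1b encode the peroxisomal thiolases that release acetyl-CoA at the last step of the cycle. Acaa1b stood at 342, 476, 545 and 788 CPM in WT with mineral oil and at 135, 308 and 170 CPM with CCl4. In ΔEGFR it stood at 516, 813, 696 and 735 CPM with mineral oil and at 299, 258, 263 and 398 CPM with CCl4. The treatments did not overlap within either genotype, and the closest pair was 308 CPM in WT CCl4 2 against 342 CPM in WT mineral oil 1. Acaa1b fell in WT (-1.39 ± 0.33, adjusted p = 0.018) and in ΔEGFR (-1.18 ± 0.30, adjusted p = 0.043). Each call was kept under 5 of 8 other settings, and both were lost without scaling factors (-0.95 and -0.75, adjusted p = 0.0644 and 0.115). In fits that left out 1 library the WT call was kept in 13 of 15 (adjusted p up to 0.0911) and the ΔEGFR call in 7 of 15 (adjusted p up to 0.136).

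Acaa1a was 166, 290, 248 and 202 CPM in WT with mineral oil and 89.4, 123 and 82.8 CPM with CCl4. Levels in ΔEGFR were 225, 291, 147 and 295 CPM with mineral oil and 167, 134, 138 and 151 CPM with CCl4. The WT groups did not overlap, while ΔEGFR mineral oil 3 lay inside the range of its CCl4 group. Acaa1a fell in WT (-1.20 ± 0.26, adjusted p = 0.0121), and its value in ΔEGFR was -0.70 ± 0.23 (adjusted p = 0.0953). The WT call was kept under 6 of 8 other settings and in 14 of 15 fits that left out a library. The pair cannot be fully separated by short reads: 30.5% of the 50-base words in Acaa1b transcripts also occur in Acaa1a, so counts may be split unevenly between them.

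Hsd17b4, the peroxisomal enzyme that hydrates and dehydrogenates branched and very long chains, was 247, 425, 407 and 427 CPM in WT with mineral oil and 200, 250 and 214 CPM with CCl4. For ΔEGFR the values were 333, 430, 320 and 446 CPM with mineral oil and 213, 217, 267 and 326 CPM with CCl4. WT mineral oil 1 lay within the CCl4 range and the other 3 libraries of its group lay far above it. Hsd17b4 fell in WT (-0.77 ± 0.23, adjusted p = 0.0419), and without WT mineral oil 1 the value was -0.92 (adjusted p = 0.00761). This call was kept under 4 of 8 other settings and in 5 of 15 fits that left out a library. In ΔEGFR the value was -0.58 ± 0.21 (adjusted p = 0.114). The other 2 peroxisomal members, Ehhadh, a second multifunctional oxidation enzyme, and Pex11a, a factor of peroxisome division, had values of -0.45 ± 0.40 and -0.71 ± 0.26 in WT and of -0.52 ± 0.37 and -0.34 ± 0.24 in ΔEGFR, and passed in neither. The sign of Ehhadh turned positive without scaling factors in WT (0.01), and that of Pex11a did so in ΔEGFR (0.16).

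**Figure D3:**
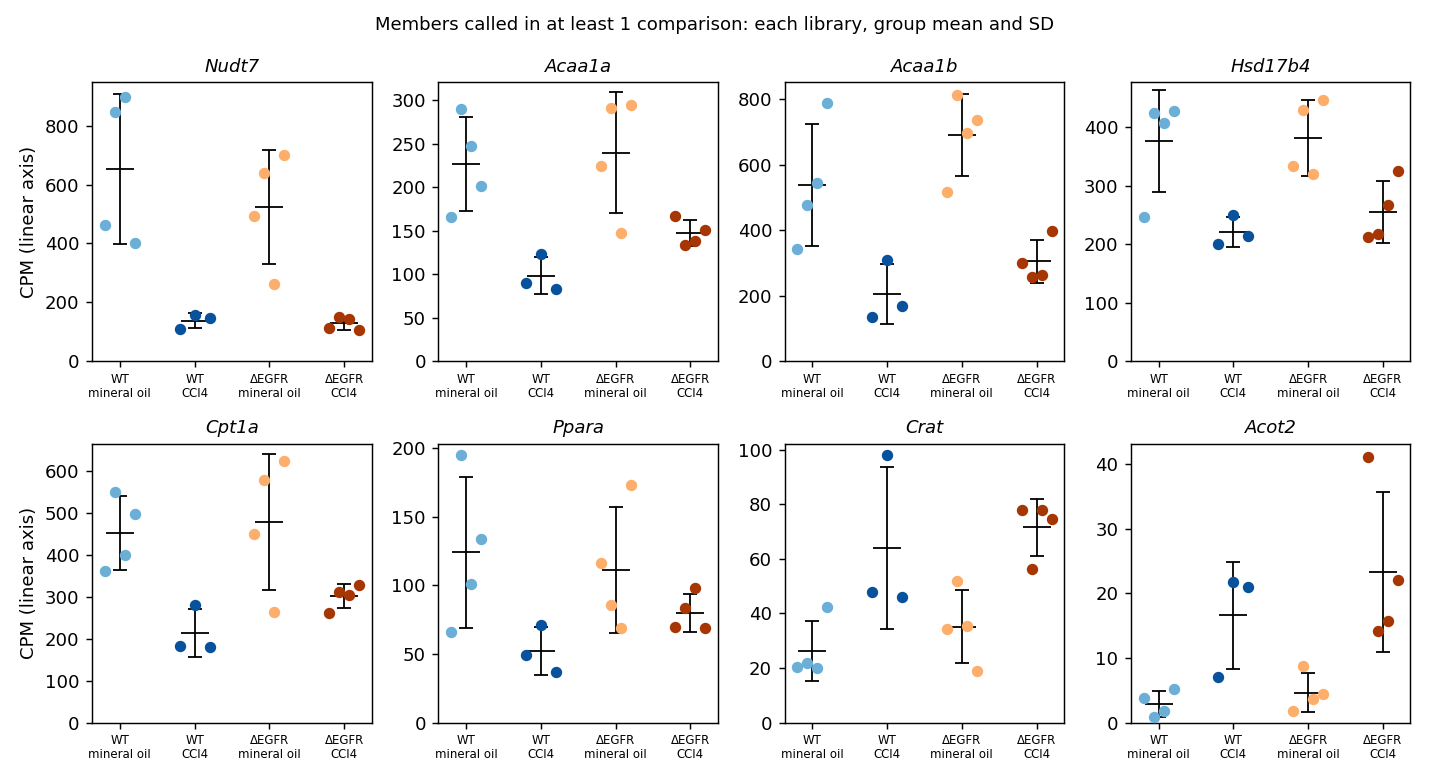
Each point is 1 library's CPM (linear axis from 0) for the 8 members called in at least 1 comparison, with the group mean and SD in black. Nudt7 falls to 107 to 156 CPM in CCl4 libraries of both genotypes, whereas Acot2 stays under 9 CPM in mineral oil libraries and reaches 41.1 CPM under CCl4.

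The sequences just upstream of the 2 genes called lower in both genotypes and of Acot2, the member with the largest increase, are shown because PPARα and its partner RXR are known to bind a direct repeat of AGGTCA spaced by 1 base (DR1). Each run is the 250 bases before the RefSeq start, read 5′ to 3′ on the gene's strand in GRCm38.p6, a different build from the one used for alignment. Capitals mark the 13 bases closest, on either strand, to this repeat: AGGTCA, then N (any base), then AGGTCA.
Nudt7, chr8:114133324-114133573, plus strand: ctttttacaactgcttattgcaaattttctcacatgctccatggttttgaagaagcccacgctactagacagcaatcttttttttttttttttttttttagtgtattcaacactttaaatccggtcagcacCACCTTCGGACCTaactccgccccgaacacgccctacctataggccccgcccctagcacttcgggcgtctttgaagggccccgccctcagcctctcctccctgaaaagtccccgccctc
Acaa1b, chr9:119157094-119157343, minus strand: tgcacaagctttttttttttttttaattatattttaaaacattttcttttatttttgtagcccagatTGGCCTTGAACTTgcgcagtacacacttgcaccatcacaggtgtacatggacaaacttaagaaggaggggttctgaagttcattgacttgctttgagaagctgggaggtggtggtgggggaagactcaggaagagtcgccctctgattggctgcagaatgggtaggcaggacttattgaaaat
Acot2, chr12:83987611-83987860, plus strand: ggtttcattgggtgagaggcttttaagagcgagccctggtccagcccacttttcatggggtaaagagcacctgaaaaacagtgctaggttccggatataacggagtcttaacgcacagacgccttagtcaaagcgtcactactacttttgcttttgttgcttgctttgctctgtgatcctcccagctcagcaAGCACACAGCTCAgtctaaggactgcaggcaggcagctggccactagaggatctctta
The closest match differed from the repeat at 5 of its 12 scored letters in Nudt7, where 2 stretches were equally close and 1 is marked, at 4 in Acaa1b and at 3 in Acot2. With at most 2 differing letters, in windows of 250 bases before to 50 after the start, the repeat was found in 4 of the 29 members that had a promoter entry (13.8%) and in 3.86% of 32851 mouse promoters. The share of members counts genes by their closest promoter entry, and the share over the mouse counts single promoters, so the units differ. The 4 were Acot4 (CGGCCAAAGGTCA), Echs1 (AGGTCACGGGTCC), Etfa (AGGGCAAAGGTAA) and Slc25a20 (AGGTGAAAGGTCG), and no member of this group of 4 was called in any comparison. A match of letters is a description of the window and not a measured binding site.

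The acyl-CoA thioesterases, which release free fatty acids from their CoA esters, were the role with the lowest levels and the largest increases. Acot2, the mitochondrial form, was 3.79, 0.83, 1.76 and 5.13 CPM in WT with mineral oil and 6.99, 21.8 and 20.9 CPM with CCl4. ΔEGFR libraries gave 1.75, 8.78, 3.59 and 4.5 CPM with mineral oil and 41.1, 14.2, 15.7 and 22 CPM with CCl4. Within each genotype every CCl4 library was above every mineral oil library, and across genotypes 1 mineral oil library (8.78 CPM) exceeded 1 CCl4 library (6.99 CPM). Acot2 rose 5.75-fold in WT (2.52 ± 0.66, adjusted p = 0.0269). In ΔEGFR the fold was 4.99 (2.32 ± 0.63, adjusted p = 0.0548), just above the threshold. The WT call was kept under 7 of 8 other settings and in 11 of 15 fits that left out a library, and the ΔEGFR value passed under DESeq2 (adjusted p = 0.00299).

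The cytosolic Acot1 had values of 1.34 ± 0.81 in WT and 0.91 ± 0.76 in ΔEGFR, and the peroxisomal Acot3 of 1.92 ± 1.08 and 1.92 ± 1.03. Both varied widely inside groups, as when Acot1 in WT CCl4 was 2.76, 51.8 and 12.1 CPM, and neither passed the test. Acot1 to Acot4 were positive in both genotypes under every scaling run. Without WT mineral oil 1, which held 2.58 CPM of Acot3 against 0.0798 to 0.509 in the other 3, Acot3 passed in WT (3.50, adjusted p = 0.0322). Acot4, another peroxisomal form, was 0.54 ± 0.29 and 0.69 ± 0.27, and passed in ΔEGFR without scaling factors (1.17, adjusted p = 0.0389). Acot8, also peroxisomal, was negative in both genotypes (-0.24 ± 0.17 and -0.23 ± 0.16) and positive without scaling factors. Acot1, Acot2 and Acot3 lie in a family of near copies: 24.5% of the 50-base words of Acot2 occur in Acot1, so their separate values are uncertain.

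Among the 5 genes of the carnitine shuttle, Cpt1a fell and Crat rose in WT. Cpt1a, the outer membrane transferase at the entry of long chains into mitochondria, was 361, 551, 400 and 499 CPM in WT with mineral oil and 183, 280 and 180 CPM with CCl4. The ΔEGFR libraries had 451, 580, 263 and 624 CPM with mineral oil and 261, 311, 305 and 328 CPM with CCl4. The WT groups were clear of each other, while ΔEGFR mineral oil 3 fell among its CCl4 libraries. Cpt1a fell 2.11-fold in WT (-1.08 ± 0.28, adjusted p = 0.0255), and its value in ΔEGFR was -0.67 ± 0.25 (adjusted p = 0.129). The WT call was kept under 5 of 8 other settings and lost without scaling factors (-0.64, adjusted p = 0.0839), on log2(TPM + 1) (-0.58, adjusted p = 0.127) and in the fit of the compared groups alone (adjusted p = 0.0604). It was kept in 11 of 15 fits that left out a library and lost without WT mineral oil 2 or 4 or WT CCl4 1 or 3 (adjusted p up to 0.111).

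Crat, which moves acetyl groups between CoA and carnitine, was 20.4, 21.9, 19.9 and 42.5 CPM in WT with mineral oil and 47.7, 98 and 46.1 CPM with CCl4. ΔEGFR hepatocytes held 34.2, 51.8, 35.5 and 19 CPM with mineral oil and 77.8, 56.1, 77.7 and 74.5 CPM with CCl4. Groups did not overlap in either genotype, with the nearest libraries at 42.5 and 46.1 CPM in WT. Crat rose 2.44-fold in WT (1.29 ± 0.36, adjusted p = 0.035), and the ΔEGFR value was 1.03 ± 0.34 (adjusted p = 0.0964). The WT call was kept under 7 of 8 other settings and in 11 of 15 fits that left out a library, and lost in the fit of the compared groups alone (adjusted p = 0.107) and without WT mineral oil 2 or 3 or WT CCl4 2 or 3 (adjusted p up to 0.138). Crat shares no 50-base word with another gene. The inner membrane transferase Cpt2, the translocase Slc25a20 and the peroxisomal transferase Crot had values of -0.51 to -0.17 in WT and -0.69 to -0.36 in ΔEGFR, and none of these 3 passed.

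The mitochondrial spiral itself, 15 genes from the dehydrogenases to the electron transfer genes, had no member called in either genotype. In WT the values ran from -0.85 ± 0.30 for Eci2, an isomerase for unsaturated chains (adjusted p = 0.0769), to -0.01 ± 0.27 for the long-chain dehydrogenase Acadl. At an unadjusted p under 0.05, WT held Acads, Echs1, Hadh, Eci1, Eci2 and Decr1 of the 15, beside 28.9% of all genes. ΔEGFR held only Echs1 and Etfdh of the 15, beside 24.7% of all genes. DESeq2 called Eci2 alone among the 15 in WT (adjusted p = 0.0488). All 15 were negative in both genotypes under TMM scaling. Without scaling factors 4 of the 15 turned positive in WT and 11 in ΔEGFR. Without WT mineral oil 1, whose levels were low for many of these genes, 5 of the 15 fell in WT, beside 14.2% of all genes called lower in that fit: the short-chain dehydrogenase Acads (-0.76), the hydratase Echs1 (-0.78), the hydroxyacyl-CoA dehydrogenase Hadh (-0.81), the isomerase Eci1 (-0.83) and Etfdh (-0.83), which passes electrons from the flavoprotein to ubiquinone.

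Hadha and Hadhb encode the α and β subunits of the mitochondrial trifunctional protein, which carries out the last 3 steps on long chains. Their RefSeq starts lie head to head on chromosome 5, and the 272 bases between them (60.3% G or C) are shown because one stretch of DNA precedes both genes. The run is on the plus strand of GRCm38.p6, with capitals on 1 of the 2 stretches of 13 bases that are equally close to the DR1 repeat (4 letters differing).
Hadha and Hadhb, chr5:30154981-30155252: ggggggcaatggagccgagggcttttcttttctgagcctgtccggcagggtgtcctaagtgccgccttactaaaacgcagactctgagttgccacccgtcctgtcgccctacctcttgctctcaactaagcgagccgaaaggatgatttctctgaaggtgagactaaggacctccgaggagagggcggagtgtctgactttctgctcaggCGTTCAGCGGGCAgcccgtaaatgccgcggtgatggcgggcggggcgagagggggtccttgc
Hadha was 250, 325, 380 and 404 CPM in WT with mineral oil and 298, 334 and 262 CPM with CCl4. Hadhb was 104, 147, 158 and 166 CPM in WT with mineral oil and 117, 148 and 120 CPM with CCl4. In ΔEGFR, Hadha was 309, 434, 272 and 446 CPM with mineral oil against 301, 256, 317 and 455 CPM with CCl4, and Hadhb was 127, 183, 111 and 201 CPM against 145, 114, 143 and 198 CPM. Each CCl4 range overlapped its mineral oil range. The log2 fold changes were -0.19 ± 0.24 and -0.16 ± 0.24 in WT and -0.14 ± 0.22 and -0.05 ± 0.22 in ΔEGFR, with 95% intervals of -0.71 to 0.33 and -0.68 to 0.36 in WT. These intervals leave room for changes of either sign, and both genes turned positive without scaling factors.

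Bdh1 converts acetoacetate to 3-hydroxybutyrate, the last step of ketone body synthesis. It was 115, 170, 183 and 207 CPM in WT with mineral oil and 326, 223 and 175 CPM with CCl4. Levels in ΔEGFR were 208, 257, 134 and 284 CPM with mineral oil and 239, 216, 261 and 384 CPM with CCl4. The groups overlapped in both genotypes. The values of 0.51 ± 0.30 in WT (adjusted p = 0.275) and 0.32 ± 0.28 in ΔEGFR (adjusted p = 0.502) did not pass, but without scaling factors Bdh1 was called higher in both (0.93, adjusted p = 0.0186, and 0.78, adjusted p = 0.0456).

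Ppara was 66.2, 195, 101 and 134 CPM in WT with mineral oil and 48.9, 71.1 and 36.5 CPM with CCl4. For ΔEGFR the values were 116, 85.5, 68.8 and 173 CPM with mineral oil and 69.4, 83.6, 97.9 and 69.1 CPM with CCl4. WT mineral oil 1 (66.2 CPM) lay below WT CCl4 2 (71.1 CPM), and in ΔEGFR the groups overlapped widely. Ppara fell in WT (-1.25 ± 0.38, adjusted p = 0.0479), and its ΔEGFR value was -0.47 ± 0.34 (adjusted p = 0.407). The WT call was near the threshold and was kept under 3 of 8 other settings and in 3 of 15 fits that left out a library, and the ΔEGFR sign turned positive without scaling factors (0.05).

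The roles were also compared inside each library, where a common scaling factor cancels. For each library the mean log2 CPM of the 15 mitochondrial genes was subtracted from that of the 6 peroxisomal genes. The difference was 0.36 to 0.48 in WT with mineral oil and -0.45 to -0.04 with CCl4. For ΔEGFR it was 0.33 to 0.45 with mineral oil and -0.48 to 0.05 with CCl4. All 8 mineral oil libraries, WT mineral oil 1 included, were above all 7 CCl4 libraries, so the peroxisomal genes stood lower relative to the mitochondrial ones after CCl4 whatever the scaling. Much of this gap rests on Nudt7: with the other 5 peroxisomal genes the ranges were 0.07 to 0.37 and -0.48 to -0.04 in WT, and 0.12 to 0.39 and -0.37 to 0.11 in ΔEGFR. The thioesterases minus the same 15 genes gave -5.89 to -4.23 with mineral oil and -4.47 to -2.87 with CCl4 in WT, and -5.54 to -4.49 and -3.70 to -2.61 in ΔEGFR. These roles were chosen by function with gene values of the same libraries known, so the differences are descriptions and were not tested.

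**Figure D4:**
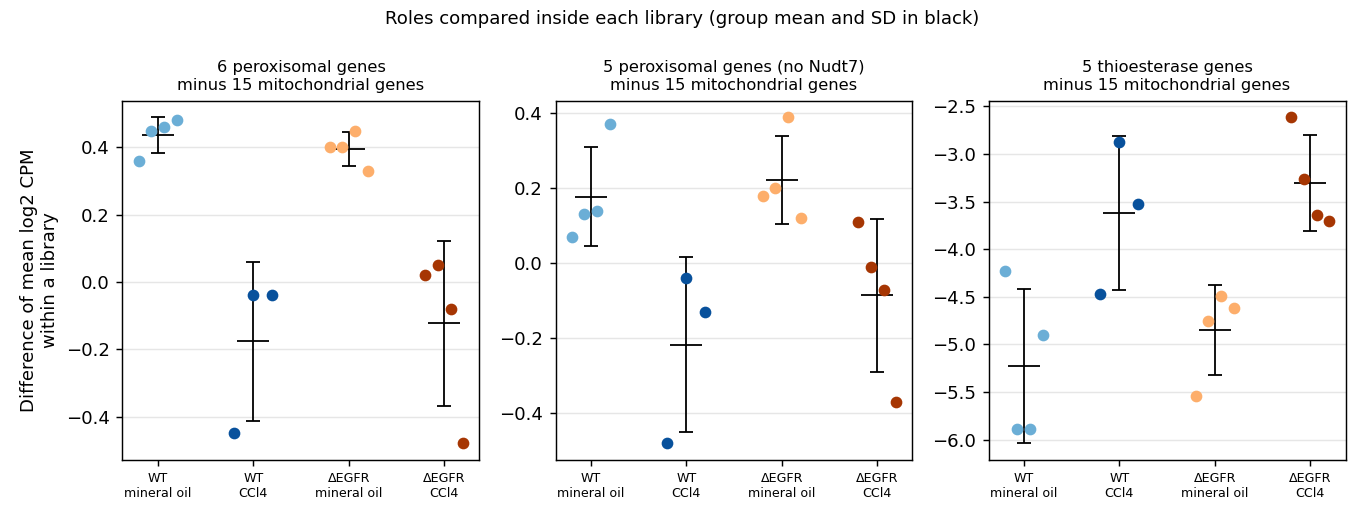
Points are libraries, and the y axis is the difference of mean log2 CPM between 2 roles inside that library, with group mean and SD in black. In the left panel the mineral oil libraries lie at 0.33 to 0.48 and the CCl4 libraries at -0.48 to 0.05; the middle panel leaves out Nudt7, and the right panel shows the thioesterases.

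The CCl4 differences of the 2 genotypes, which come from separate libraries, were alike across the members. Under TMM scaling all 33 had the same sign in WT and in ΔEGFR, with Pearson's r = 0.97 and Spearman's rho = 0.81 across the 33 genes, which are not independent of each other. Without scaling factors more members were negative in WT than in ΔEGFR, so the signs did not all agree there. The size was smaller in ΔEGFR for 26 of the 33, and the interaction was positive for 24, where 53.1% of all genes were positive. The shares of all genes with the same sign, or with a smaller size in ΔEGFR, were not counted. In the test of the difference itself, the interaction of genotype and treatment, 0 members and 0% of all genes were called by edgeR. At an unadjusted p under 0.05 there were 0 members and 3.16% of all genes, and DESeq2 called 2 genes in all and no member. For Ppara the interaction was 0.78 ± 0.50 (95% interval -0.31 to 1.86), and for Cpt1a it was 0.41 ± 0.37 (-0.39 to 1.20). For Nudt7 it was 0.22 ± 0.47 (-0.79 to 1.23), so a weaker, equal or stronger loss in ΔEGFR all lie inside its interval.

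Between genotypes at the same treatment, no member was called, and neither was any gene of the whole table (0% with mineral oil and 0% under CCl4). At an unadjusted p under 0.05 there were 0 members with mineral oil, beside 6.66% of all genes, and 2 under CCl4, beside 2.29%. Those 2 were Acaa1a (0.58 ± 0.25, unadjusted p = 0.0369, adjusted p = 1) and Pex11a (0.56 ± 0.26, unadjusted p = 0.0479, adjusted p = 1). Acaa1a was the member whose 4 ΔEGFR CCl4 libraries, at 134 to 167 CPM, all lay above the 3 WT CCl4 libraries, at 82.8 to 123 CPM, where 2.68% of all genes did so. DESeq2 called 9 genes with mineral oil and 1 under CCl4, none of them a member.

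With mineral oil no member's groups were free of overlap, where 1.44% of all genes were higher and 1.29% lower without overlap. The estimates leaned one way. With mineral oil 31 of the 33 members were higher in ΔEGFR, with a median of 0.18, and under CCl4 31 were higher, with a median of 0.29, where 49% and 49.1% of all genes had a log2 fold change above 0. Under other scalings the count was 29 to 31 with mineral oil and 30 to 31 under CCl4. The 33 genes vary together from library to library, so these counts are not 33 separate observations. With mineral oil the lean depended on single libraries. Without WT mineral oil 1, 21 of 33 were higher, with a median of 0.04. Over all fits that left out 1 library the median with mineral oil ran from 0.01 to 0.28. WT mineral oil 1 held 135.54 M counts, against 56.89 to 61.89 M in the rest of its group. ΔEGFR libraries with mineral oil held 98.63 to 140.61 M. Depth was therefore not balanced between the genotypes. A fit with a term for depth also called 0 genes between genotypes in each treatment. The part of depth in the lean itself was not tested. Under CCl4 the median ran from 0.15 without ΔEGFR CCl4 4 to 0.48 without WT CCl4 2. Nudt7 was lower in ΔEGFR in both treatments (-0.32 ± 0.32 and -0.10 ± 0.34), and passed in neither.

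**Figure D5:**
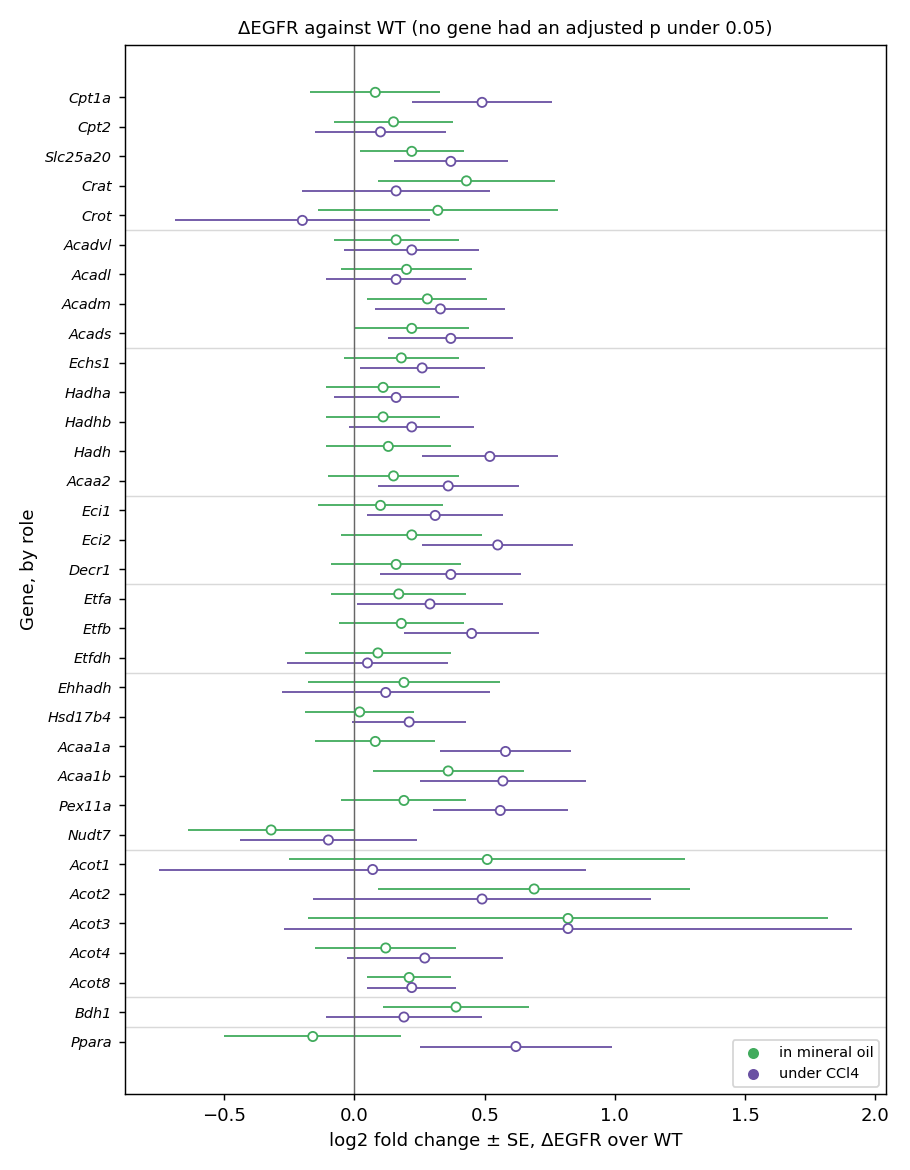
Points are log2 fold changes of ΔEGFR over WT with their standard errors for the 33 genes by role, green with mineral oil and purple under CCl4. Most points lie between 0 and 0.6, and no adjusted p is under 0.05.

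A wider list of 114 genes of the same pathways, of which 112 were tested, also had mostly negative values with CCl4. In WT 33 were called lower and 7 higher (35.7% called, beside 12.5% of all genes), with a median of -0.58, and in ΔEGFR 18 lower and 2 higher (17.9% called, beside 4.15% of all genes), with a median of -0.47. For the counts by list below, 7.2% of all genes were called lower and 5.31% higher in WT, and 2.38% lower and 1.77% higher in ΔEGFR. Without WT mineral oil 1, 57 were called lower and 10 higher in WT, beside 14.2% and 14.5% of all genes. Without scaling factors the medians were -0.12 and 0.01, beside 0.40 and 0.44 over all genes, and 20 lower and 12 higher were called in WT (2.87% and 12.9% of all genes) and 7 lower and 3 higher in ΔEGFR (1.02% and 5.55%). On log2(TPM + 1), with 110 genes tested, the medians were -0.05 in WT and 0.11 in ΔEGFR. There 10 lower and 12 higher were called in WT (2.4% and 18.4% of all genes). In ΔEGFR 3 lower and 5 higher were called (0.998% and 13.7%). Fatty acid uptake and activation held 6 lower of 14 in WT and 4 in ΔEGFR. Slc27a2, a very long-chain acyl-CoA synthetase and transporter, was 1254 ± 245 CPM (SD) in WT with mineral oil and 439 ± 102 with CCl4 (-1.52 ± 0.27, adjusted p = 0.00638). It fell in ΔEGFR as well (-1.18 ± 0.24, adjusted p = 0.0238). The medium-chain synthetase Acsm1 fell in both genotypes (-1.58 ± 0.27 and -1.23 ± 0.24, adjusted p = 0.00553 and 0.0229).

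Other mitochondrial oxidation genes held 10 lower and 1 higher of 19 in WT and 5 lower in ΔEGFR. Without scaling factors 5 were called lower in WT and 0 in ΔEGFR, and on log2(TPM + 1) 0 were called lower in either genotype. Acadsb, the dehydrogenase for short branched chains, fell in both genotypes (-1.14 ± 0.25 and -1.0 ± 0.22, adjusted p = 0.0132 and 0.0332), and the ΔEGFR call was lost without scaling factors (-0.53, adjusted p = 0.0732). Other peroxisomal oxidation genes held 8 lower and 1 higher of 20 in WT and 7 lower and 1 higher in ΔEGFR. For these, 5 were called lower in WT and 3 in ΔEGFR without scaling factors, and 3 and 0 on log2(TPM + 1). Decr2, the peroxisomal reductase for unsaturated chains, was 158 ± 27.2 CPM in WT with mineral oil and 55 ± 7.87 with CCl4 (-1.53 ± 0.23, adjusted p = 0.00383). Phyh, which starts the breakdown of phytanic acid, fell in WT (-1.38 ± 0.26, adjusted p = 0.00734) and in ΔEGFR (-1.19 ± 0.23, adjusted p = 0.0227). Catalase (Cat), which removes the hydrogen peroxide made by peroxisomal oxidation, fell from 3133 ± 949 to 1270 ± 95.9 CPM in WT (-1.30 ± 0.31, adjusted p = 0.0176).

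Of 15 genes of peroxisome biogenesis, all 15 were negative in both genotypes, though 5 in WT and 4 in ΔEGFR turned positive without scaling factors, and 2 were called in WT, Pex26 (-1.48 ± 0.32, adjusted p = 0.0123) and Pex19 (-0.65 ± 0.17, adjusted p = 0.0277), against 1 in ΔEGFR, Pex3 (-0.64 ± 0.15, adjusted p = 0.0377). Without WT mineral oil 1, 11 of the 15 were called lower in WT and 7 in ΔEGFR, beside 14.2% and 6.48% of all genes. Without scaling factors the calls of Pex19 in WT (-0.21, adjusted p = 0.265) and of Pex3 in ΔEGFR (-0.16, adjusted p = 0.437) were lost. On log2(TPM + 1) 0 of the 15 were called lower in either genotype, so the Pex26 call was also lost there. The shares of all genes called lower on that scale were 2.4% in WT and 0.998% in ΔEGFR. On it, 7 of the 15 were positive in WT and 9 in ΔEGFR. Of 18 genes of omega oxidation and PPARα targets, 3 were called lower and 2 higher in WT, and 1 lower in ΔEGFR. Directions were split, with 8 of the 18 positive in each genotype and medians of -0.39 in WT and -0.14 in ΔEGFR. Cyp4a12a, a fatty acid omega-hydroxylase, fell 8.72-fold in WT and 8.17-fold in ΔEGFR (adjusted p = 0.0057 and 0.0105). Plin2, a coat protein of lipid droplets, rose in WT from 217 ± 52.4 to 641 ± 138 CPM (1.57 ± 0.24, adjusted p = 0.00429), and in ΔEGFR its value was 0.13 ± 0.23 (adjusted p = 0.756). The interaction for Plin2 was -1.44 ± 0.33, with an unadjusted p of 0.000801 and an adjusted p of 1, so the difference between genotypes did not pass over all genes.

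The ketone body list, which held 7 genes, had 1 called. Oxct1, the enzyme by which tissues other than hepatocytes use ketone bodies, rose from 6.08 ± 5.89 to 37.1 ± 18.5 CPM in WT (2.60 ± 0.72, adjusted p = 0.0338) and from 4.5 ± 2.39 to 32.1 ± 9.26 CPM in ΔEGFR (2.83 ± 0.70, adjusted p = 0.0415). Macrophage and stellate marker sums were higher in the same CCl4 libraries, and their part in the Oxct1 result was not tested. Of 19 genes that control these pathways, 4 were called lower and 1 higher in WT and none in ΔEGFR. Prkaa2, a catalytic subunit of the AMP-activated kinase, fell in WT (-1.23 ± 0.21, adjusted p = 0.00555), and Ppard, a nuclear receptor related to Ppara, rose (1.65 ± 0.37, adjusted p = 0.0153). Without scaling factors 2 of the 19 were called lower and 2 higher in WT, beside 2.87% and 12.9% of all genes. On log2(TPM + 1) 0 were called lower and 2 higher in WT (2.4% and 18.4% of all genes), so the Prkaa2 call was lost there.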

How the data were processed

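RNA from primary mouse hepatocytes was sequenced in 15 libraries. The library kit was a stranded one for mRNA, according to the labels' protocols. The submitters' processing notes name STAR 2.7.8a, RSEM 1.3.0 and the build GRCm39. Which annotation was used, and whether counting used strand, is not given in the sources used here. The deposited files hold RSEM expected counts per gene, and the authors' TPM values stand in the same deposited files. Gene names were joined by Ensembl identifier from a GENCODE table of GRCm38, which named 52029 of 56953 identifiers (91.4%).

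The counts, rounded to whole numbers, were tested in R 4.3.3 with edgeR 4.0.16: filterByExpr by group (minimum count 10, minimum total 15), TMM factors, 1 mean for each of the 4 groups, robust quasi-likelihood F tests, and Benjamini-Hochberg adjustment over 17975 genes in each of 5 comparisons, called at 0.05. The common biological coefficient of variation was 50.9%. CPM values use TMM-scaled library totals. The procedure was tested on simulated counts. Alternatives were RLE factors, no scaling factors, DESeq2 1.42.0, 2 other filters, fits of the compared groups alone, limma 3.58.1 on log2(TPM + 1), a term for depth, and leaving out each library. No replicate numbers or batches stand in the labels.

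The members and all gene lists were chosen with earlier results of these data known. Values per library are given for members called in at least 1 comparison and for Cpt1a, Ppara, Bdh1, Hadha and Hadhb; from each list of other genes at most 4 with the lowest adjusted p could be named, and Acot1 and Acot3 were added after their values were seen. Promoter sequences are RefSeq's on GRCm38.p6; 29 of 33 members matched by symbol. The DR1 repeat (AGGTCA, any base, AGGTCA) was searched on both strands, and its middle base was not scored. Words of 50 bases shared between genes were counted in GENCODE transcripts of GRCm38.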

Additional observations from a re-analysis of the deposited data

Results flagged for a closer look

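Library WT mineral oil 1 lay far below the other 3 of its group for 6 members. Cpt2 was 70.7 CPM there and 127 to 135 in the others, Acads 102 against 179 to 192, and Echs1 131 against 198 to 207. Eci1 was 44.2 CPM there and 78.7 to 79.7 in the others, Etfa 134 against 207 to 220, and Hsd17b4 247 against 407 to 427. The neutrophil markers of this library summed to 1444 CPM. Its macrophage, endothelial, erythroid and T, NK and B cell marker sums were also the highest of its group. The part of all these cells in the low values was not tested.

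Crat stood out in 2 further libraries. It was 42.5 CPM in WT mineral oil 4, above the 19.9 to 21.9 of the other 3, and 56.1 CPM in ΔEGFR CCl4 2, below the 74.5 to 77.8 of the other 3. In each case the distance to the nearest library of the group, as a share of the group's range, was above Dixon's 95% critical value for 4 samples. Of 99 sets of 4 libraries examined, 8 met it, where chance gives about 1 in 20, and the 6 in WT mineral oil 1 come from the same library.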

How the results depend on the processing

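No paired analysis was possible because the labels carry no replicate numbers, animals or batches. Main counts are 8 members (2 higher, 6 lower) and 2250 genes (955 higher, 1295 lower) in WT, and 2 members and 746 genes (319 higher, 427 lower) in ΔEGFR. Precision was limited for small changes: the 95% interval of Hadha in WT ran from -0.71 to 0.33.

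Without scaling factors 5 members (3 higher, 2 lower) were called in WT, with 2326 genes higher and 515 lower, and 5 members (4 higher) in ΔEGFR, with 1180 genes (997 higher, 183 lower). On log2(TPM + 1) limma called 4 members in WT, with 2533 genes higher and 330 lower, and 5 members in ΔEGFR, with 2014 genes (1877 higher, 137 lower). DESeq2 called 3611 genes in WT and 2399 in ΔEGFR with 4 members, 9 and 1 genes between genotypes with mineral oil and under CCl4, and 2 for the interaction, where limma called 1. Without a low-count filter 1457 genes were called in WT, and 470 with 1 member in ΔEGFR. Fits of the compared groups alone called 533 genes and 1 member in WT and 1286 genes in ΔEGFR. With a depth term 1643 genes were called in ΔEGFR. The cause of these shifts was not tested.

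Leaving out 1 library gave 1 to 15 members and 575 to 5111 genes in WT, and 1 to 4 members and 75 to 2145 genes in ΔEGFR. The WT count of members was 15 without WT mineral oil 1, beside 28.7% of all genes called in that fit. It was 3 without WT mineral oil 2 (5.66% of all genes) and 4 without WT mineral oil 3 (5.76%). Without WT mineral oil 4 it was 5, beside 1828 of 18191 genes. Without WT CCl4 1 or 2 it was 4, beside 8.43% and 4.83% of all genes. Without WT CCl4 3 it was 1, Nudt7, beside 3.12%. The genotype comparisons and the interaction had 0 calls, of members and of all genes, without any single library. None of the 10 member calls reversed in sign under any alternative run.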
